A study of Mus musculus with 6 samples.

Results

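The Rab27 secretory machinery was described through 10 genes, chosen by symbol from 19938 mouse genes that the array measured. They are Rab27a, Rab27b, Sytl1, Sytl2, Sytl3, Sytl4, Unc13d, Myrip, Exph5 and Mlph, and each had 1 probe set that carried no other gene symbol. The group was picked because Rab27a was 1 of 24 genes that passed the test between the study's groups, so the contrast of Rab27a is described here and supports nothing. Values are log2 signals, in which a difference of 1 is a doubling. Apart from a cut that left dim genes out of the test, signals of different probe sets were not compared with each other. A probe set's brightness also depends on its probes.

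The study compared dendritic cells grown from the marrow of female C57BL/6J mice that had received 2000000 bone marrow cells each from a congenic B6.SJL-Ptprca donor, a strain whose leukocytes carry the CD45.1 alloantigen. In the naive-donor group (3 arrays) the donor had not been irradiated. In the UV-donor group (3 arrays) it had received up to 8 kJ/m2 of broadband ultraviolet radiation on 8 cm2 of shaved back skin. Whether naive donors were shaved too is not given in the sources used here. Mice of both groups are listed as 6 to 10 weeks old, an age stated for the time of irradiation. Recipient marrow of both groups was cultured for 5 days with GM-CSF and IL-4 at 10 ng/ml each and enriched to over 95% CD11c+ cells. The share of cultured cells that came from the donor is not given in the sources used here, nor whether the 3 preparations of a group came from separate recipients. The p-values therefore rest on the spread among 3 preparations per group, part or all of which may be technical. Array medians lay between 7.16 and 7.23, and the interquartile range of all signals was 3.61 to 3.68 on the naive-donor arrays and 3.71 to 3.75 on the UV-donor arrays. After quantile normalization, which removes that gap, the difference of Rab27a was 0.57.

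Rab27 proteins are small GTPases of the membranes of lysosome-related granules and multivesicular bodies. Loaded with GTP, they recruit effectors that move such organelles along actin, tether them below the plasma membrane and ready them for fusion. In leukocytes Rab27a and the tether Munc13-4 are needed for release of cytotoxic and neutrophil granules, and in dendritic cells Rab27a is known to deliver the NADPH oxidase to phagosomes.

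Rab27a was the member with the largest difference, and the bases before its start sites are shown because its transcript is the one the results turn on. RefSeq windows (build GRCm38.p6) were found for 7 of the 10 genes. Those of Rab27a are 250 bases upstream of each of its start sites, both on the + strand of chromosome 9. The first is chr9:73044560-73044809 and the second is chr9:73063898-73064147, and capitals mark matches to the motifs searched.
Rab27a, first start: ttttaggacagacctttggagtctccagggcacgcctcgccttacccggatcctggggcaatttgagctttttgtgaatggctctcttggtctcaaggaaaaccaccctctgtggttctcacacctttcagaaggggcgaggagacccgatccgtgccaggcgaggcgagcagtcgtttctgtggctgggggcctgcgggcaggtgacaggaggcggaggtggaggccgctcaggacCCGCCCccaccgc
Rab27a, second start: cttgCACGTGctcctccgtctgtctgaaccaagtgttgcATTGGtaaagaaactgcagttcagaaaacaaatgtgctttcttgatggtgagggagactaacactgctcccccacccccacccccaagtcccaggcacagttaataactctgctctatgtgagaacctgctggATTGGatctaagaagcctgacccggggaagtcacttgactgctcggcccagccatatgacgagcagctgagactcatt

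Both strands were searched for CACGTG (the E-box of MITF and TFE factors), GAGGAA (a PU.1 core), TTCNNNGAA (a STAT site), GGGCGG (the GC box) and CCAAT. The first window held 1 GC box on the opposite strand, 13 bases before the start. The second held 1 CACGTG and 2 CCAAT boxes on the opposite strand. CACGTG was present in 6.02% of 32851 windows of this length, GGGCGG in 32.7% and CCAAT in 33.8%. PU.1 cores were present in 23.3% of windows, and the STAT pattern in 7.02%. Neither pattern was in a Rab27a window, which says only that those letters are absent there. Mlph, the member with the largest difference in the lower direction, had 1 CACGTG 48 bases and 1 GC box 67 bases before its start. Sytl4 had 2 PU.1 cores and 1 STAT pattern, Sytl3 had 1 STAT pattern, Myrip had 3 GC boxes and 1 CCAAT box, and Exph5 had 2 GC boxes and 1 CCAAT box. The Sytl1 window held no match to these motifs.

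Rab27a was higher in every UV-donor preparation than in any naive-donor preparation, while its isoform Rab27b was dim. The log2 signal of Rab27a (probe set 10587023) was 8.56, 8.72 and 8.72 on naive-donor replicates 1, 2 and 3, and 9.20, 9.44 and 9.19 on UV-donor replicates 1, 2 and 3. The groups did not overlap, and UV-donor replicate 2 was the highest array. The means were 8.67 ± 0.09 and 9.28 ± 0.14 (SD, n = 3 each), a difference of 0.61 (SE 0.08, 95% interval 0.43 to 0.80), or 1.53-fold. Its limma adjusted p was 0.0387, which is the value that put it among the 24 called genes, where it ranked 19 of 13956 tested genes by p. In preparations of many cells, more cells of a type that carries Rab27a and more Rab27a RNA per cell cannot be told apart.

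The call of Rab27a did not outlast the loss of any array. With 1 array left out its difference ran from 0.53 (without UV-donor replicate 2) to 0.66 (without UV-donor replicate 3). The limma adjusted p then ran from 0.0504 (without UV-donor replicate 1) to 0.184 (without naive-donor replicate 1). With the replicate number as a block it was 0.069.

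Rab27b, the isoform of platelets, pituitary and exocrine glands, was dim. Its signals were 5.78, 5.85 and 5.72 on the naive-donor arrays and 5.83, 5.74 and 5.80 on the UV-donor arrays. The groups overlapped, with a difference of 0.0059 (95% interval -0.12 to 0.13 in limma without the dim filter). Dim genes are those whose mean over all 6 arrays lay below the 30th percentile of genes, a log2 signal of 6.58. They were left out of the test, so their intervals come from a fit that kept all genes. Rab27b, Sytl2, Sytl3 and Exph5 were dim and the other 6 members were tested. The tested member nearest the limit was Sytl4, with group means of 6.93 and 6.88, and the dim member nearest to it was Sytl3, with 6.08 and 6.09.

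**Figure D1:**
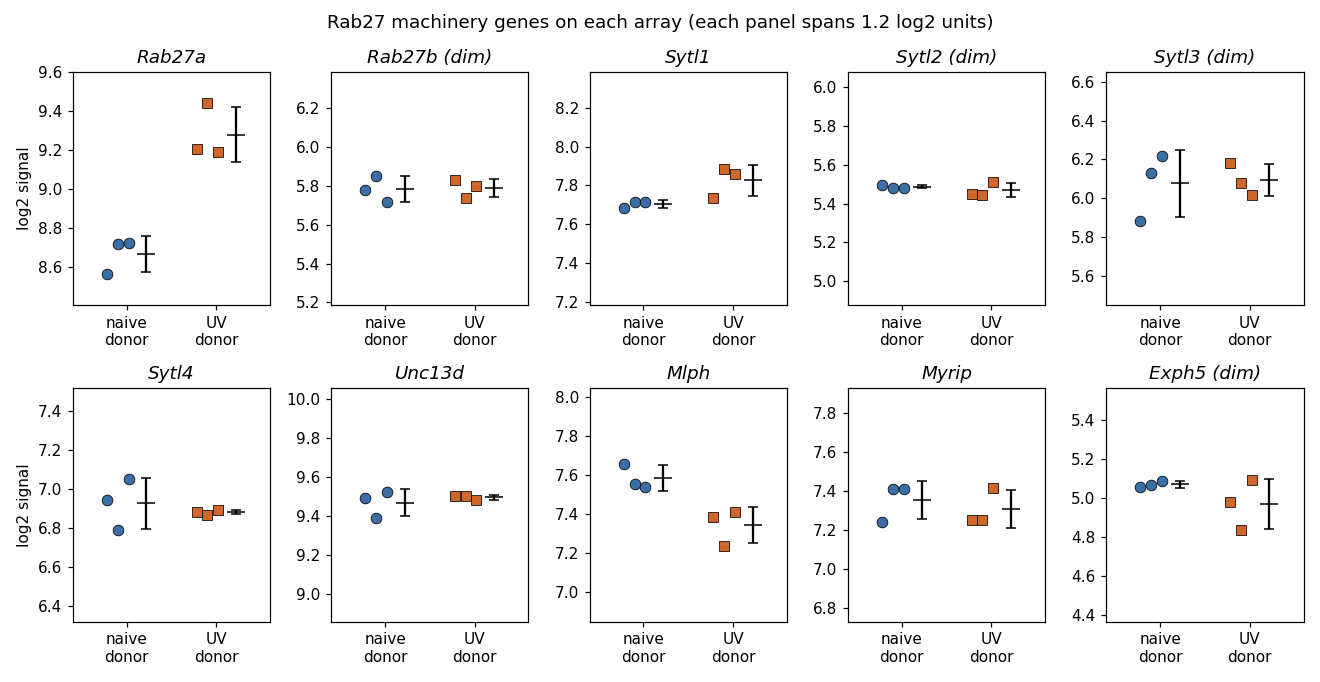
Log2 signal of the 10 genes on each array, in panels that all span the same log2 range. Circles are naive-donor arrays, squares are UV-donor arrays, and bars are the mean ± SD of 3 arrays. Rab27a, whose gap chose the group, shows the widest one, Sytl1 and Mlph show narrower gaps in opposite directions, and the other 7 genes overlap.

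The synaptotagmin-like proteins bind GTP-loaded Rab27 at their N-terminus and membranes through C2 domains, and dock granules at the cell surface. Sytl1 (JFC1), which acts in granule release of neutrophils, had signals of 7.68, 7.72 and 7.72 on the naive-donor arrays and 7.74, 7.89 and 7.86 on the UV-donor arrays. The groups did not overlap, but UV-donor replicate 1 lay close to the naive-donor arrays. Its difference was 0.12 (95% interval -0.0017 to 0.24, limma adjusted p = 0.337), so it did not pass. Sytl4 (granuphilin), known from insulin granules, had signals of 6.94, 6.79 and 7.05 on the naive-donor arrays and 6.88, 6.87 and 6.89 on the UV-donor arrays. All its UV-donor values fell inside the naive-donor range, and the difference of -0.047 changed sign without naive-donor replicate 3 (0.014). Sytl2, an effector in epithelia and cytotoxic lymphocytes, and Sytl3 were both dim. Sytl2 ran from 5.48 to 5.49 on the naive-donor arrays and from 5.44 to 5.51 on the UV-donor arrays. Sytl3 ran from 5.88 to 6.22 on the naive-donor arrays and from 6.02 to 6.18 on the UV-donor arrays, so both overlapped.

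Unc13d encodes Munc13-4, which binds Rab27a and readies docked granules for fusion. Its signals were 9.49, 9.39 and 9.52 on the naive-donor arrays and 9.50, 9.50 and 9.48 on the UV-donor arrays. All UV-donor values lay within the naive-donor range. The difference of 0.026 had a 95% interval of -0.091 to 0.14 (limma adjusted p = 0.848). The difference of Unc13d changed sign with quantile normalization (-0.019) and without naive-donor replicate 2 (-0.013).

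The Slac2 effectors join Rab27 organelles to myosins or actin. Mlph (melanophilin, Slac2-a) links Rab27a to myosin Va on the melanosomes of pigment cells. It had signals of 7.66, 7.55 and 7.54 on the naive-donor arrays and 7.38, 7.24 and 7.41 on the UV-donor arrays. The groups did not overlap, and the UV-donor arrays were the lower ones. The difference was -0.24 (SE 0.06, 95% interval -0.38 to -0.097), with a limma adjusted p of 0.163, so it did not pass. Leaving out single arrays moved it between -0.27 and -0.19. Myrip (Slac2-c), which links Rab27a to myosin VIIa in retinal pigment epithelium, had signals of 7.24, 7.41 and 7.41 against 7.25, 7.25 and 7.42, with overlapping groups and a difference of -0.047 (limma adjusted p = 0.792). Exph5 (Slac2-b) was dim, at 5.05, 5.07 and 5.09 on the naive-donor arrays and 4.98, 4.84 and 5.09 on the UV-donor arrays. UV-donor replicate 2 was the lowest of these and UV-donor replicate 3 the highest.

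**Figure D2:**
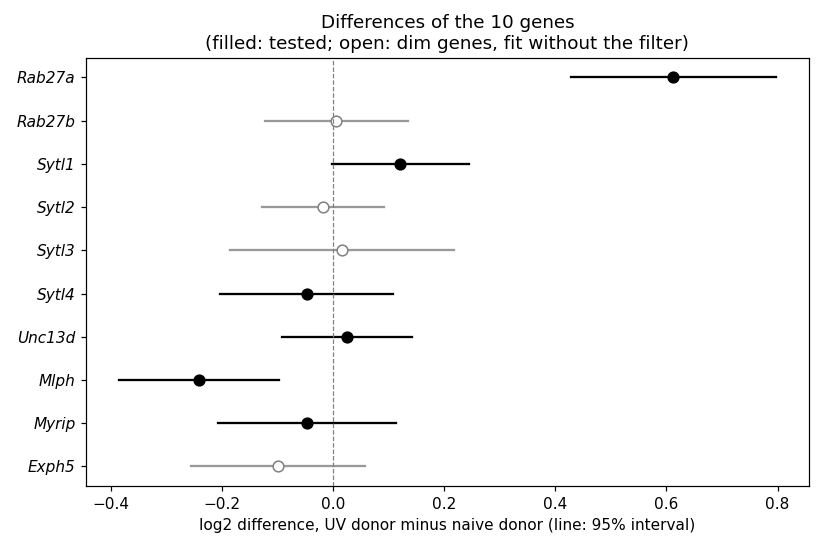
Log2 difference of each of the 10 genes, UV donor minus naive donor, with limma's 95% interval. Filled points are tested genes and open points are dim genes, fitted without the filter. The interval of Rab27a (0.43 to 0.80) lies above those of the other members, but Rab27a chose the group by passing this test, so nothing is read from that.

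Of the 6 tested members 1 was called, Rab27a, and it chose the group. Over all tested genes 0.172% were called at a limma adjusted p under 0.05, all higher in the UV-donor group, and nothing is read from the members' count beside it. Groups did not overlap for 3 tested members, against 21.8% of all tested genes. Rab27a is one of them through the choice of the group, which leaves Sytl1 and Mlph among the 5 other tested members. Rab27a and Sytl1 were higher (12.4% of all tested genes) and Mlph lower (9.37%). The UV-donor mean was above the naive-donor mean for 3 of the 6, and for 50.6% of all tested genes. Limma adjusted p-values of the 5 other tested members lay between 0.163 and 0.848. By unadjusted p under 0.05, Rab27a counted among the 9.6% of tested genes that were higher and Mlph among the 5.49% that were lower. Rab27a stands in each of these counts through the choice of the group, so nothing is read from them.

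None of the tested genes around Rab27 was called, and few of all tested genes were. A list of 80 genes of Rab27 activation, transport, fusion, organelle formation and function held 73 tested genes, of which 39 had a higher and 34 a lower mean in the UV-donor group. Another 3 were dim and 4 had no probe set with a single symbol. Their median difference was 0.0075, and that of all tested genes was 0.0016. Limma called 0 of the 73 at an adjusted p under 0.05, against 0.172% of all tested genes, so nothing is read from that count. By unadjusted p under 0.05 it gave 2 in the higher and 0 in the lower direction, against 15.1% of all tested genes in both directions. Differences ran from -0.18 to 0.14.

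Rab27a must be prenylated to reach membranes. The escort proteins Chm and Chml, the subunits Rabggta and Rabggtb of geranylgeranyl transferase, and Gdi2, which extracts Rab proteins from membranes, differed by 0.0037 to 0.066. The leading genes were Chml (0.066) and Gdi2 (0.041). The exchange factor Madd, which loads Rab27a with GTP, and the GTPase-activating proteins Tbc1d10a, Tbc1d10b and Tbc1d10c of the EPI64 family all had higher means in the UV-donor group. The leading members were Tbc1d10c at 0.098 (limma adjusted p = 0.36) and Tbc1d10a at 0.088 (limma adjusted p = 0.388). Tbc1d10a read 8.89, 8.85 and 8.83 on the naive-donor arrays and 8.94, 8.93 and 8.96 on the UV-donor arrays, without overlap. None of the 4 passed the test.

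Other effectors and Munc13 relatives had lower means in all 7 tested genes, with a median of -0.062. They were led by Rph3al (Noc2, of endocrine granules) at -0.10 and Rph3a (rabphilin) at -0.12, at adjusted p-values of 0.39 and 0.393 (limma). Coro1c, which binds GDP-loaded Rab27a, differed by -0.020. The myosins Myo5a, Myo5b, Myo5c and Myo7a also had lower means, from -0.10 to -0.020. Myo5a, the partner of Mlph, differed by -0.042 (limma adjusted p = 0.758) and Myo5c by -0.10 (limma adjusted p = 0.489).

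Membrane fusion genes were split 7 higher to 4 lower of 11 tested. Stxbp3 (Munc18-3) led at 0.14 and Stx7, a late endosomal syntaxin, followed at 0.088. Stx11 (0.067) and Stxbp2 (0.0055), which act with Munc13-4 in cytotoxic granule release, did not pass. For biogenesis of lysosome-related organelles, 19 tested genes had a median of 0.029. Hps4 and Hps3, subunits of complexes that build such organelles, differed by 0.14 and 0.13. They were the 2 pathway genes with an unadjusted p under 0.05, and their limma adjusted p-values were 0.213 and 0.28.

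Rab27a is known to dock multivesicular bodies, the source of exosomes. Of 17 tested genes of exosome formation 7 had higher and 10 lower means, led by the tetraspanins Cd81 (-0.13, limma adjusted p = 0.333) and Cd9 (0.094, limma adjusted p = 0.566). The tetraspanin Cd63, a marker of these bodies, differed by -0.021. Of the NADPH oxidase genes, the cytosolic subunits Ncf4 (0.098) and Ncf1 (0.094) had higher means. The membrane subunits Cybb (-0.10) and Cyba (-0.066) had lower ones. Cyba read 13.68, 13.64 and 13.63 on the naive-donor arrays and 13.57, 13.58 and 13.60 on the UV-donor arrays, without overlap. Ncf4 did not overlap either, with the UV-donor arrays above, and the adjusted p (limma) of the oxidase genes ran from 0.376 for Ncf4 to 0.944 for Rac1.

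**Figure D3:**
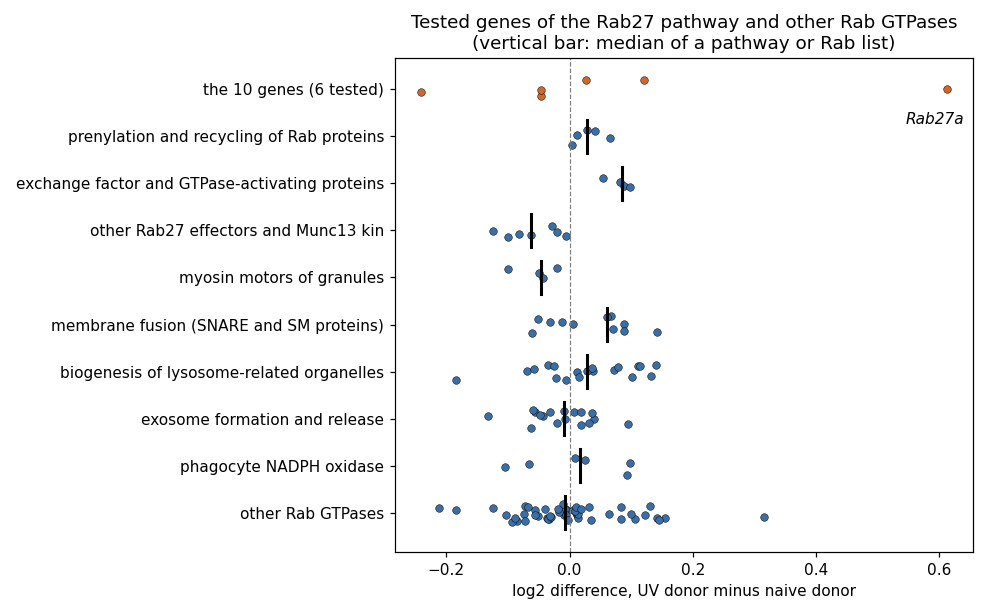
Log2 differences, UV donor minus naive donor, of the tested members, of the tested pathway genes by list and of other Rab GTPases. Each point is a gene and the vertical bar is the median of a pathway or Rab list. Pathway genes ran from -0.18 to 0.14 and other Rabs from -0.21 to 0.32. Rab27a, at 0.61, chose the group by passing this test, so nothing is read from its place beyond them.

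Among 50 tested genes of other Rab GTPases 21 had higher and 29 lower means in the UV-donor group, with a median of -0.0067. Limma called 0 of them at an adjusted p under 0.05, against 0.172% of all tested genes, so nothing is read from that count. By unadjusted p under 0.05 it gave 3 in the higher and 2 in the lower direction, against 9.6% and 5.49% of all tested genes. Rab7, Rab11a, Rab32 and Rab35 are also among the tested pathway genes. The leading gene was Rab44, a large Rab of granules in mast cells. It read 8.93, 8.96 and 9.06 on the naive-donor arrays and 9.22, 9.43 and 9.24 on the UV-donor arrays, a difference of 0.32 (SE 0.07, limma adjusted p = 0.135). Its groups did not overlap, and as with Rab27a, UV-donor replicate 2 was the highest array. Rab2b, of the early secretory pathway, followed at -0.21 (limma adjusted p = 0.181). Rab3d, which shares secretory granules and effectors with Rab27, differed by -0.067 (limma adjusted p = 0.617).

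The tested genes whose profile lay closest to that of Rab27a were found by the root mean square difference of log2 signals centred on each gene's mean over the 6 arrays. Of 13955 other genes the closest were Enah (0.082), Ifitm1 (0.083), Stk26 (0.083), Nt5e (0.085) and Prkcq (0.086). Enah encodes an actin regulator of the Ena/VASP family, Ifitm1 an interferon-induced membrane protein, Stk26 a protein kinase, Nt5e the ectonucleotidase CD73 and Prkcq protein kinase C theta. UV-donor replicate 2 was the highest array for each of them, and for Rab27a. The genes were picked for likeness to Rab27a on these same arrays. That shared pattern and their group differences therefore follow from the choice and support nothing. Differences between groups were 0.49 for Enah, 0.74 for Ifitm1, 0.55 for Stk26, 0.47 for Nt5e and 0.64 for Prkcq. The other tested members lay farther away, with Sytl1 nearest (0.26, rank 1150) and Mlph farthest (0.46, rank 13800).

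**Figure D4:**
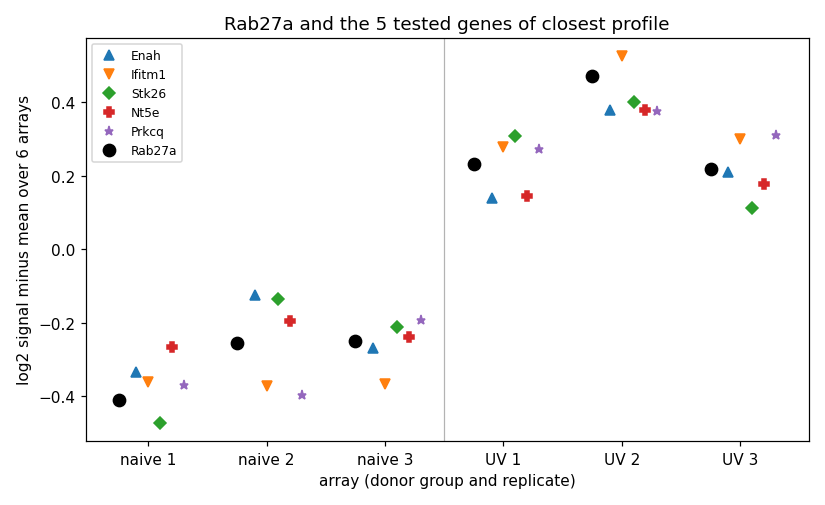
Log2 signal of Rab27a (black circles) and of the 5 tested genes of closest profile on each of the 6 arrays, each centred on its own mean over the arrays. For each of the 6 genes all UV-donor arrays lie above all naive-donor arrays, and UV-donor replicate 2 is the highest. The 5 genes were picked for this likeness.

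Of 7 dendritic cell markers 6 lay above the dim cut, and some marker lists of other cells had higher means in the UV-donor group. Itgax (CD11c), for which the cells were enriched, had group means of 13.77 and 13.73. Those of H2-Ab1 (MHC class II) were 12.57 and 12.68, while the progenitor and dendritic cell receptor Flt3 was dim. In the dendritic cell list Cd209a rose by 0.59 (limma adjusted p = 0.0199), and the list mean, relative to the naive-donor mean, ran from -0.039 to 0.021 on the naive-donor arrays and from 0.12 to 0.15 on the UV-donor arrays. That gap rested on Cd209a: the 5 other tested markers differed by -0.044 to 0.10, and without Cd209a the list means overlapped, at -0.050 to 0.035 against 0.025 to 0.059. Of 11 neutrophil markers 10 were tested, 7 with higher means, and Ltf (0.54) and S100a8 (0.77) passed the test. The neutrophil list mean on the same scale ran from -0.083 to 0.11 on the naive-donor arrays and from 0.32 to 0.48 on the UV-donor arrays. The defining marker Ly6g differed by 0.88 without passing (limma adjusted p = 0.152), Elane and Mpo differed by -0.035 and 0.045, and Ctsg was dim. Camp differed by -0.019 with overlap, and Prtn3 was lower without overlap, by -0.12. The part of these cells in the difference of Rab27a was not tested.

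Progenitor markers had higher means in 6 of 6 genes, with list means of -0.091 to 0.073 against 0.35 to 0.42. Ms4a3 rose by 1.09 (limma adjusted p = 0.0387) and Cd34 differed by 0.76. The progenitor markers Kit (0.19), Meis1 (0.054) and Sox4 (0.042) overlapped between groups. Macrophage list means ran from -0.0039 to 0.0075 against 0.24 to 0.34, with C1qb up by 0.63 (limma adjusted p = 0.0199) and Adgre1 at 0.51. Of the 6 tested macrophage markers 5 had higher means and 1 a lower one. Csf1r (0.039) and Mertk (-0.056) overlapped between groups. The 3 tested of 7 eosinophil markers gave -0.10 to 0.14 against 0.37 to 0.48. Prg2 differed by 0.75 (limma adjusted p = 0.105), Ear6 by 0.29 and Siglecf, with overlap, by 0.19, and none of them passed. Of the dim ones Ccr3 overlapped, while Epx was higher without overlap by 0.40 (limma adjusted p = 0.0479 in the fit without the dim filter). Cell division genes gave -0.16 to 0.22 against 0.39 to 0.84, with UV-donor replicate 1 highest. Mki67 differed by 0.47 and Aurka by 0.53. The 4 tested platelet markers gave -0.070 to 0.049 against 0.12 to 0.20, with Ppbp at 0.34 and Pf4, of smallest p, at 0.21, neither of which passed. The platelet markers Itga2b (0.074) and Gp9 (0.042) overlapped between groups. The calls of Cd209a, Ltf, S100a8, Ms4a3 and C1qb were each lost when naive-donor replicate 1, UV-donor replicate 2 or UV-donor replicate 3 was left out. Without naive-donor replicate 3 only that of Cd209a was kept, and without naive-donor replicate 2 those of S100a8 and Ms4a3 were lost.

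The other marker lists, among them those of further cells known for Rab27-dependent granules, gave overlapping list means. The cytotoxic T and NK list, with 6 of 9 tested, ran from -0.11 to 0.16 against 0.031 to 0.15. Cd3e differed by 0.066 and Cd8a by -0.11, and Ncr1, Klrb1c and Nkg7 were dim. In the mast cell and basophil list Kit (0.19) and Hdc were tested, for list means of -0.063 to 0.084 against 0.058 to 0.20. The 5 others were dim and overlapped between groups. Of these Cpa3 (0.31), Mcpt8 (0.24) and Ms4a2 (0.11) had higher means, and Fcer1a (-0.027) and Tpsab1 (-0.015) lower ones. Melanocyte markers Tyr, Tyrp1 and Dct were dim, and Mlana differed by -0.12, with list means of -0.070 to 0.054 against -0.14 to 0.088. In the B cell list Pax5 was tested (-0.037), and Cd79a, Ms4a1 and Jchain were dim.

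**Figure D5:**
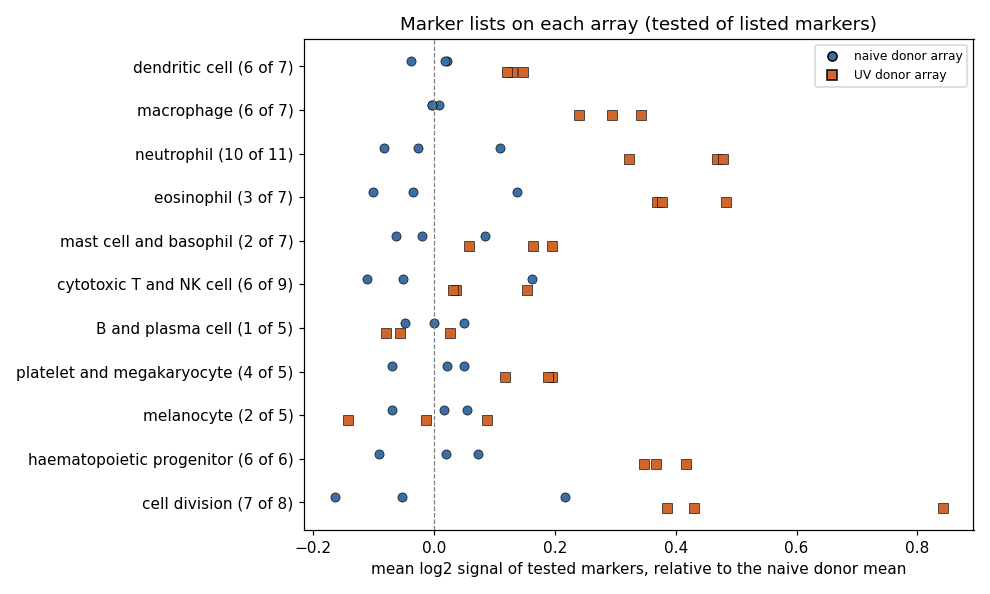
Mean log2 signal of the tested markers of each list on each array, relative to the mean of the naive-donor arrays. Circles are naive-donor and squares UV-donor arrays, and brackets give the tested of the listed markers. Neutrophil, macrophage, eosinophil, platelet, progenitor and cell division lists separate the groups, the dendritic cell list does so only with Cd209a, and the cytotoxic, mast cell, B cell and melanocyte lists do not.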

How the data were processed

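The deposited table holds log2 signals of 35556 probe sets on 6 Affymetrix Mouse Gene 1.0 ST arrays, as shown by values from 2.52 to 14.6. The submitters' processing notes name RMA, oligo and limma without versions, and scan dates are not given in the sources used here. Batches were not examined. Values were used as deposited. Symbols were those of the platform annotation, updated through Entrez identifiers with RefSeq (GRCm38.p6, names only). Of the probe sets 21789 had 1 symbol and 1621 several. The highest-mean probe set stood for each gene, and 13956 genes at or above the 30th percentile were tested with limma 3.58.1 in R 4.3.3, two-sided, with Benjamini-Hochberg adjustment over all tested genes. An exact permutation of 3 against 3 cannot go below 0.1. The number of arrays limits the precision. The script was tested on simulated data.

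The members and lists were chosen with earlier results of these data known. Named genes were all members, the 2 pathway genes of smallest p per list, the 5 nearest to Rab27a, and of each marker list the first and the one of smallest p; other genes were named after their values were seen. Alternatives covered the replicate block, filters, normalization, variance model, probe set choice and single arrays. The dendritic cell list without Cd209a was added after its value was seen. Figures were drawn with matplotlib 3.10.9.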

Additional observations from a re-analysis of the deposited data

How the results depend on the processing

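The count of pathway genes and of other Rab GTPases called was 0 under all 17 alternatives. The count of members called was 1, and 0 with the replicate block, with all single-symbol probe sets or with all probe sets tested, and 0 to 0 with single arrays left out. Rab27a kept its difference of 0.61 in those 3 fits with limma adjusted p-values of 0.069, 0.0532 and 0.343, and single arrays left out gave 0.53 to 0.66. It passed under the other 8 alternatives, at 0.57 to 0.65. Deviations from the group means had correlations of -0.13, -0.22 and 0.15 between arrays of equal replicate number. With 3 arrays per group these values do not settle whether the arrays were paired. All genes called numbered 24, and 0 with the replicate block (limma, 1952 at an unadjusted p under 0.05), 43 with centred medians, 45 with an intensity trend and robust prior, 43 with array weights, 0 with all probe sets tested (limma, 3509 at an unadjusted p under 0.05) and 1 to 32 with single arrays left out (1 without naive-donor replicate 1, UV-donor replicate 2 or UV-donor replicate 3, 3 without naive-donor replicate 3). Unc13d turned from 0.026 to -0.019 with quantile normalization, and ran from -0.013 to 0.053 with single arrays left out. Sytl4 ran from -0.12 to 0.014. The causes were not tested.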
